A study of Mus musculus with 39 samples.

Results

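The Hox genes of the mouse, which encode homeodomain transcription factors, were examined as targets of Notch and of its DNA-binding partner RBPJ in progenitors of the embryonic cerebral cortex. The 39 members were all protein-coding genes of the mm10 (GRCm38) annotation whose symbol is Hoxa, Hoxb, Hoxc or Hoxd followed by a number, out of 21938 protein-coding genes on the nuclear chromosomes. They form 4 complexes, with 11 genes in Hoxa, 10 in Hoxb, 9 in Hoxc and 9 in Hoxd. A peak was counted for a Hox gene when the nearest start site of any protein-coding gene belonged to that gene. Of 20809 nuclear consensus peaks, 6 met this rule.

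Hox genes lie side by side in the genome in the order in which they are used along the head-to-tail axis of the embryo. Genes of the low-numbered paralog groups are used nearer the head, and those of the high-numbered groups nearer the tail. They give positional identity to the hindbrain, spinal cord and trunk, and the forebrain is known for lacking Hox expression, with the complexes held under Polycomb repression. The deposited files used here contain binding peaks and no expression, so neither silence of the Hox genes nor the labelled cell types could be checked by markers.

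The peaks came from in utero Targeted DamID (TaDa), a method that tags GATC sites near a bound protein by joining that protein to the bacterial adenine methylase Dam. Wild-type MF1 embryos were electroporated with the plasmids at E13.5 and the cortex was dissected at E14.5. The Hes5 promoter drove expression in radial glial cells (RGCs), and the Tα1 promoter in intermediate progenitor cells (IPCs). In RGCs, human RBPJ1 was profiled in 3 samples and mouse Notch in 4, of which 2 carried NICD and 2 carried NdECD. In IPCs, RBPJ1 was profiled in 3 samples and NICD in 4. Dam-only controls, 5 in RGCs and 4 in IPCs, were shared by the RBPJ and Notch lists of a cell type. Both the promoter plasmids and the fusions were introduced from outside, so cell identity rests on promoter activity and Notch was supplied ectopically. Each list was pooled, containing only peaks found in all pairs of fusion and Dam-only samples. It gives no value per sample, so no replicate spread and no test were available, and depth is unknown. Intervals below are Wilson 95% intervals and cover counting error over peaks only.

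All 6 Hox peaks were called in a single list. The RGC RBPJ list provided 3 of them, the IPC RBPJ list 2, the RGC Notch list 1 and the IPC Notch list 0. Over all consensus peaks, 82.9% were called in a single list. The 6 peaks belonged to 5 genes, among them Hoxb8, Hoxc6, Hoxc4 and Hoxd1 with 1 each. Sequence from these peaks is printed first, taken from GRCm38.p6 and read 5′ to 3′. The lines show places where the peaks of these 4 genes contain TTCCCA, the core of the sequence that RBPJ recognises, searched on both strands (TGGGAA on the other), or the only Dam target of a peak. Capitals mark TTCCCA and, in the Hoxc6 and Hoxd1 lines, GATC.
Hoxc6 peak, upstream of the covered start, chr15:103009082-103009294, minus strand: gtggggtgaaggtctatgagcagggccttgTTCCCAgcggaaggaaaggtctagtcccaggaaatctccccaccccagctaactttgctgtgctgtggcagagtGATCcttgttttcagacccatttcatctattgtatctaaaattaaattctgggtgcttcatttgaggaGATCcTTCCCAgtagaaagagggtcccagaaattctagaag
Hoxb8 peak, first word, chr11:96279216-96279275, minus strand: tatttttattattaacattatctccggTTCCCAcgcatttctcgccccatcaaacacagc
Hoxb8 peak, second word, chr11:96279957-96280016, plus strand: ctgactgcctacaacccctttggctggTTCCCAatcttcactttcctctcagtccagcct
Hoxc4 peak, a word followed by C, chr15:103083888-103083947, minus strand: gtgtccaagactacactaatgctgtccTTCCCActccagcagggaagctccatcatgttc
Hoxc4 peak, another word followed by C, chr15:103086281-103086340, plus strand: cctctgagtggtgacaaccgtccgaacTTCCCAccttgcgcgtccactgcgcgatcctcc
Hoxd1 peak, its only GATC, chr2:74790070-74790129, plus strand: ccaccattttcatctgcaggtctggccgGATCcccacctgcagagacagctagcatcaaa

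The Hoxc6 peak was the only Hox peak that lay on a start site. Hoxc6 (ENSMUSG00000001661) is a member of the middle paralog groups, which act in the trunk. Its peak spanned chr15:103008542-103010916, 2375 bp, and was called for RBPJ in RGCs. It covered the start at 103009573, the first exon with its untranslated and coding parts, and also lay within the long transcript of Hoxc5. It contained 12 GATC sites, or 5.05 per kb, and 2 TTCCCA words, both in the sequence shown upstream of the start. In that stretch the second word follows a GATC site after a single base. Hoxc6 also has start sites farther upstream. When each gene was given only its outermost start, the peak was assigned to Hoxc4 and the total stayed at 6. The next Hox starts were those of Hoxc5, 2.90 kb from the peak, and Hoxc4, 8.02 kb from it.

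Hoxb8 and Hoxd1 carried the IPC RBPJ peaks. Hoxb8 (ENSMUSG00000056648), a trunk gene, had a peak 1.81 kb upstream of its start, at chr11:96279039-96280097, between Hoxb9 and Hoxb8. This 1059 bp peak contained 2 TTCCCA words and no GATC site, and the closest GATC lay 71 bp outside it. Hoxd1 (ENSMUSG00000042448), at the anterior end of its complex, had a peak 26.4 kb downstream of its start at chr2:74789418-74790568, outside the complex on the side of Mtx2. This 1151 bp peak contained 1 GATC site and no TTCCCA word. Both peaks belonged to k-means cluster 3, in which 51.3% of 3384 consensus peaks contained no GATC site. Of the 3810 consensus peaks called only for RBPJ in IPCs, 46.6% contained none, against 1.56% of those called only for RBPJ in RGCs. The part of GATC content in these calls was not tested.

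The only Notch peak was assigned to Hoxc4. Hoxc4 (ENSMUSG00000075394), the most anterior gene of its complex, had an RGC Notch peak 48.9 kb downstream of its start nearest to it, at chr15:103083255-103087266, in the interval toward Smug1. This 4012 bp peak contained 14 GATC sites and 5 TTCCCA words, of which 2 were followed by C, a longer match to the RBPJ site. It was not called for RBPJ in either cell type. With all annotated genes competing it went to Gm28876, a long non-coding RNA gene.

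A further peak lay inside the Hoxa complex but was not assigned to a Hox gene. The IPC RBPJ peak at chr6:52178744-52180550 overlapped the Hoxa3 gene, the antisense RNA gene Hoxaas3 and the protein-coding gene 5730596B20Rik, whose start was the nearest at 1.25 kb. The closest Hoxa3 start was 3.31 kb away. It contained 2 GATC sites and 3 TTCCCA words, and it belonged to cluster 3, like the other IPC RBPJ peaks at the Hox loci. All 3 words lie within the Hoxa3 gene, and the stretch shown is around the one outside the untranslated regions of 5730596B20Rik.
Peak at 5730596B20Rik, 1 of 3 words, chr6:52179227-52179286, minus strand: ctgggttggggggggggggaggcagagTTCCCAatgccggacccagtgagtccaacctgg

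**Figure D1:**
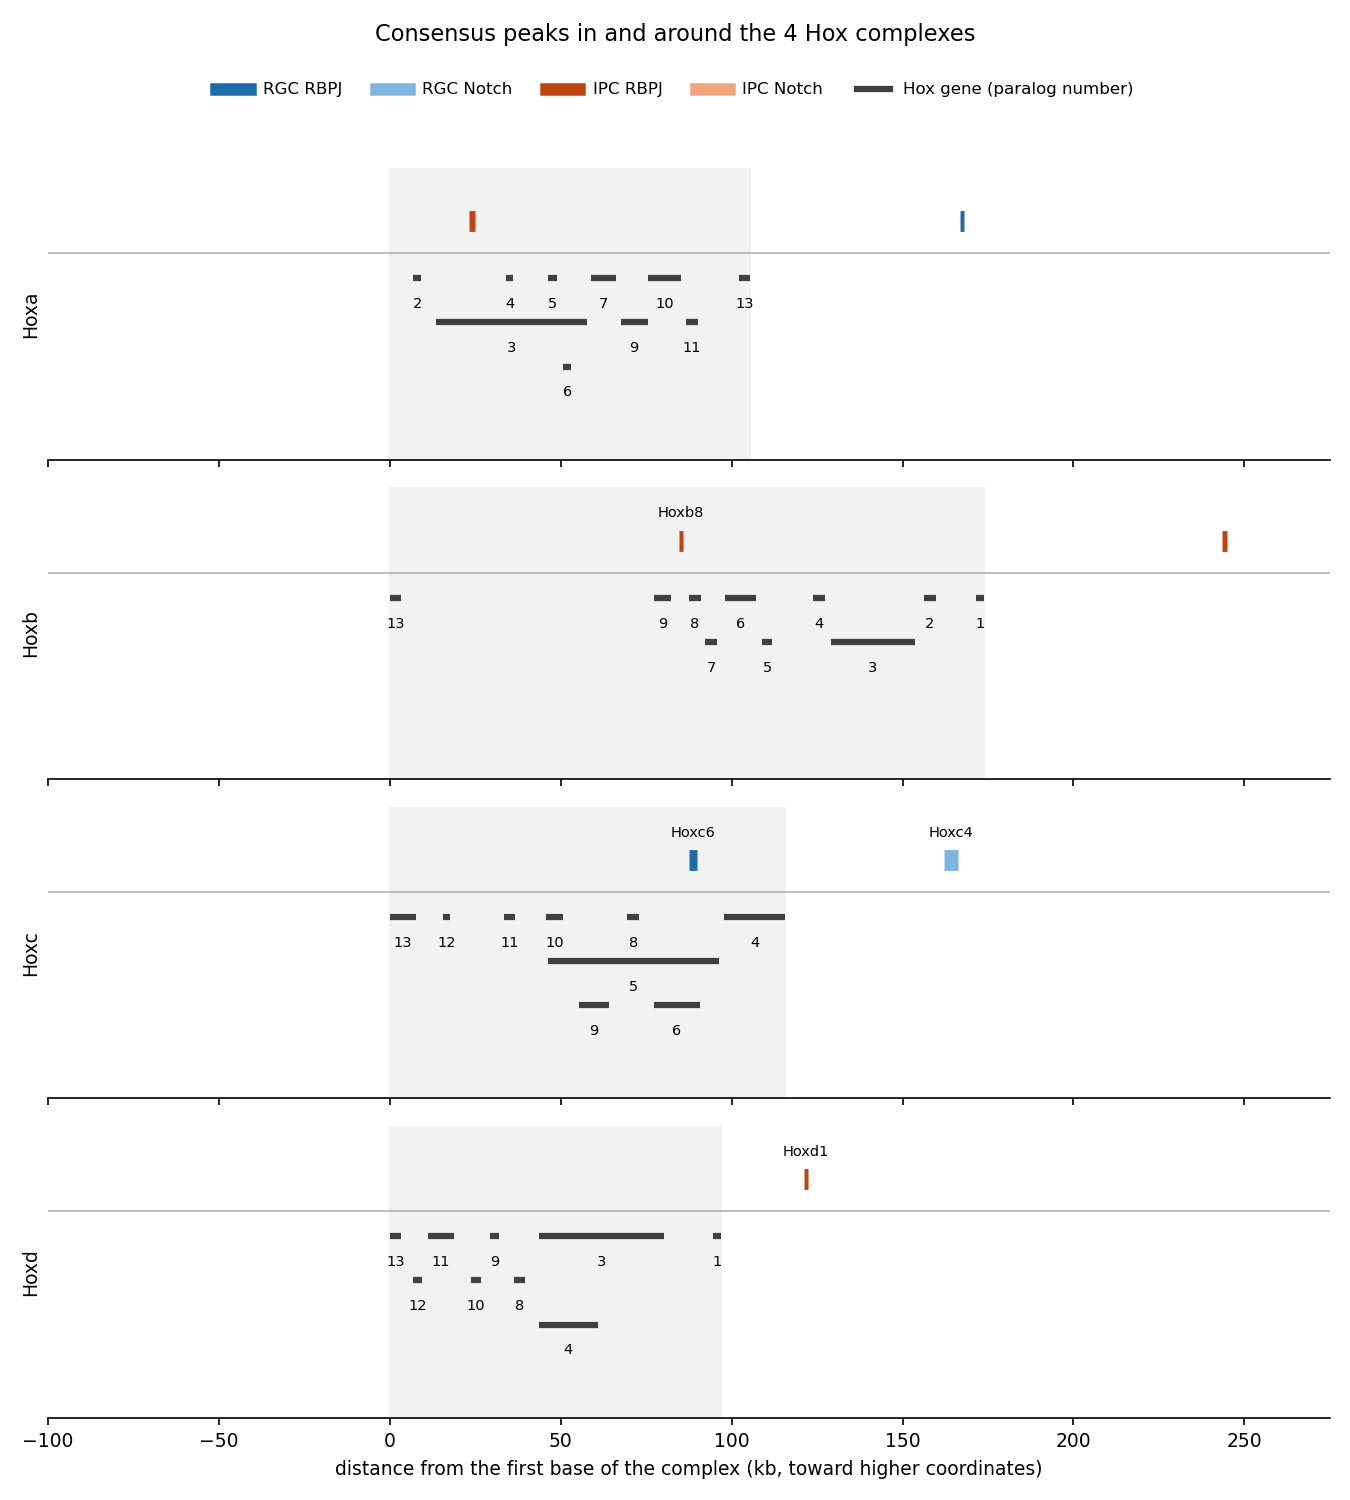
Map of the 4 Hox complexes. The horizontal axis is the distance in kb from the first base of the complex, gray shading marks the complex, dark bars are Hox genes with their paralog number, and colored blocks are consensus peaks by the list that called them, with blocks under 1 kb drawn at 1 kb. The plot holds 38 Hox genes, the peaks described one by one in the text, and those peaks of flanking genes that lie within 100 kb of a complex. Hox peaks carry the name of their gene, and no peak falls in the shaded Hoxd complex.

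The complexes differed in where peaks lay, but each held few. From the first to the last Hox base, Hoxa spanned 105.3 kb, Hoxb 173.9 kb, Hoxc 115.8 kb and Hoxd 96.8 kb. Hoxa contained 2 consensus peaks covering 2.23% of its length, Hoxb contained 1 covering 0.609%, Hoxc contained 1 covering 2.05%, and Hoxd contained 0. Over the 491.8 kb of the complexes, peaks covered 1.18%, and over the nuclear genome they covered 1.71%. Counted per Mb, the complexes held 8.13 peaks, the 100 kb on each side of them held 7.50, and the genome held 7.63. A peak that crosses the edge of a complex was counted both in the complex and in its flank. The number of peaks per Mb in the complexes was therefore close to that of the genome, with only 4 peaks behind it.

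Long stretches of Hox genes were free of peaks. The Hoxd complex lay in an interval of 258.5 kb without a consensus peak that contained the starts of all 9 Hoxd genes. Intervals longer than this made up 11.1% of the 20788 intervals between neighboring consensus peaks, whose median was 53.2 kb. An interval that holds the whole 96.8 kb complex must be longer than that median. Any fixed place also falls more often in long intervals, so these ranks do not measure a lack of peaks. In Hoxa, 9 genes from Hoxa3 to Hoxa13 had a start in a peak-free interval of 141.9 kb, and 23.2% of intervals were longer. In Hoxc, the interval before the Hoxc6 peak was 275.9 kb long, and 10.1% of intervals were longer. In Hoxb, the intervals on either side of the Hoxb8 peak were 187.0 and 157.6 kb, with 16.9% and 20.6% of intervals longer. The 16 genes of paralog groups 9 to 13, which act in the tail end of the trunk and in the limbs, had 0 peaks, beside 2.83 in proportion to their territory of 370.2 kb. The 8 genes of groups 1 to 3 had 3 peaks, at 2 genes, beside 1.97 by territory. The 15 genes of groups 4 to 8 had 3 peaks, at 3 genes, beside 1.64 by territory. These numbers are too small to order the groups. The microRNA genes of the complexes were also outside peaks. Mir615 was closest, at 3.99 kb from the Hoxc6 peak, and Mir10a and Mir10b lay 37.1 and 63.3 kb from a peak.

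Counted by gene, few Hox genes had a peak. Of the 39 Hox genes, 5 (12.8%) were nearest to at least 1 consensus peak, against a background of 38.7% of all protein-coding genes. For RBPJ in RGCs it was 2 of 39 against 30.9%, and for Notch in RGCs 1 of 39 against 11.5%. For RBPJ in IPCs it was 2 of 39 against 16.1%, and for Notch in IPCs 0 of 39 against 6.92%. A consensus peak covered a start site of 1 Hox gene, and of 16.0% of all protein-coding genes. The 34 genes without a consensus peak lay in all 4 complexes. In Hoxb they were Hoxb1, Hoxb2, Hoxb3, Hoxb4, Hoxb5, Hoxb6, Hoxb7, Hoxb9 and Hoxb13. In Hoxc they were Hoxc5, Hoxc8, Hoxc9, Hoxc10, Hoxc11, Hoxc12 and Hoxc13, and in Hoxd they were Hoxd3, Hoxd4, Hoxd8, Hoxd9, Hoxd10, Hoxd11, Hoxd12 and Hoxd13.

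The picture changed when the length of sequence open to each gene was taken into account. The territory of a gene was defined as all bases whose nearest protein-coding start is its own. It is small where genes are crowded, and its median was 10.1 kb for Hox genes and 45.03 kb for all protein-coding genes. The Hox genes were 0.178% of genes but held only 0.0310% of the genome as territory, 0.844 Mb in all. In proportion to the number of genes, 37.0 of the consensus peaks would be Hox peaks, and in proportion to territory 6.44 would be. The 6 observed were 0.0288% of peaks (interval 0.0132 to 0.0629), a range that includes the territory share and not the gene share. In proportion to GATC sites, of which the Hox territories held 2044, the number was 6.38. These proportions are arithmetic and not tests, and the 39 genes lie at only 4 places in the genome.

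The single lists gave the same order of numbers. For RBPJ in RGCs, 3 of 14097 peaks were Hox peaks, beside 25.1 in proportion to genes and 4.36 in proportion to territory. For RBPJ in IPCs, 2 of 5497 peaks were Hox peaks, beside 9.77 by genes and 1.70 by territory. For Notch in RGCs it was 1 of 3702, beside 6.58 by genes and 1.15 by territory. For Notch in IPCs it was 0 of 2157, which allows a share of up to 0.139% by the limit of 3 counts and up to 0.178% by the Wilson interval, beside 3.83 by genes and 0.668 by territory. With under 1 peak in proportion to territory, a shortfall of IPC Notch peaks could not have been detected at this depth, and the Wilson limit also reaches the gene share of 0.178%. By complex, the consensus peaks numbered 2 at Hoxa, 1 at Hoxb, 2 at Hoxc and 1 at Hoxd, beside 1.45, 1.92, 2.096 and 0.977 by territory. No complex had a count far from its territory, at numbers too small to order the complexes.

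**Figure D2:**
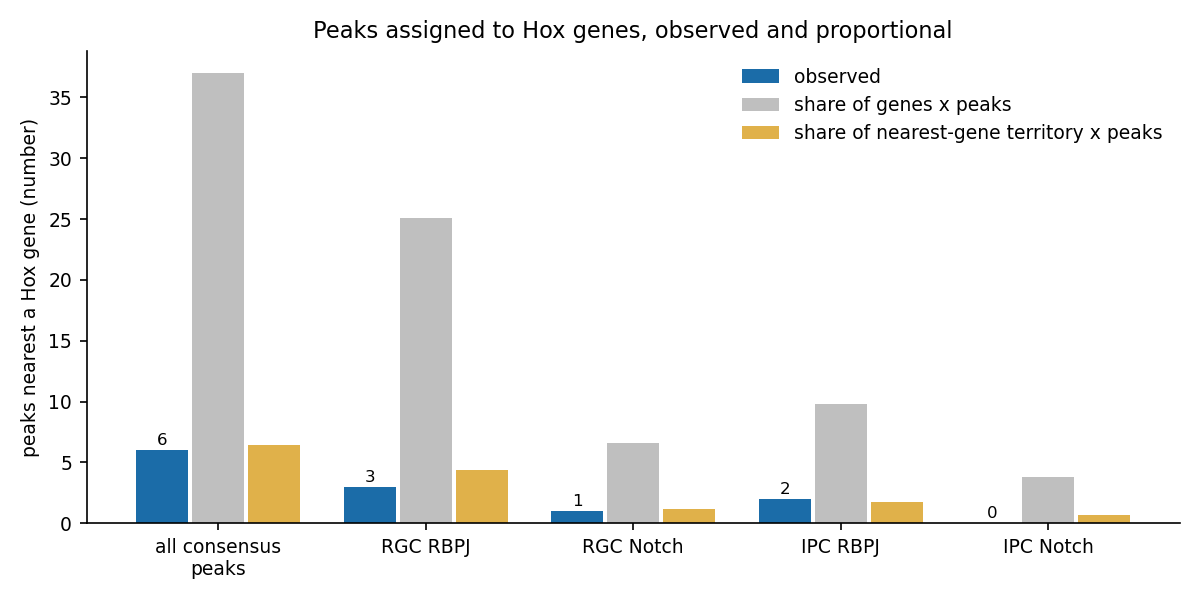
Number of peaks nearest a Hox gene. Bars give the observed number, the number in proportion to genes and the number in proportion to territory, for all consensus peaks and for each list. The observed 6 consensus peaks stand beside 37.0 by genes and 6.44 by territory.

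Across the whole annotation, the share of genes with a peak rose with the size of the territory. Among protein-coding genes with a territory under 10 kb, 11.1% had a consensus peak, and 19 Hox genes were of this size, of which 1 had a peak. Among those of 10 to 20 kb, 16.4% had a peak, and of 10 Hox genes 1 had. From 20 to 50 kb the share was 25.7% and 1 of 5 Hox genes had a peak, and from 50 to 110 kb it was 43.4% and 2 of 5 had. If each Hox gene had the share of its size class, 7.21 would have a peak, beside the 5 observed. The classes were chosen after these values were seen.

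Distances gave another view of the same loci, and here the lists differed. The median distance from the nearest start of a Hox gene to an RGC RBPJ peak was 87.4 kb, against 48.9 kb for all protein-coding genes. By complex it was 31.5 kb at Hoxc, 52.6 kb at Hoxa, 166.8 kb at Hoxd and 186.3 kb at Hoxb. To an IPC RBPJ peak the median was 65.2 kb, against 151.5 kb for all genes, with 28.2 kb at Hoxa, 30.7 kb at Hoxb, 91.7 kb at Hoxd and 234.8 kb at Hoxc. Thus Hoxc lay close to an RGC RBPJ peak and far from IPC RBPJ peaks, whereas Hoxb showed the reverse order. To an RGC Notch peak the median was 231.2 kb, against 226.1 kb for all genes, and no Hox start came closer than 48.9 kb. To an IPC Notch peak it was 402.0 kb, against 512.9 kb, and at Hoxc the closest such peak was over 2 Mb away, with distances from 2368 to 2466 kb. Neighboring genes share their nearest peak, so the 39 distances describe 4 loci, and no difference between lists was tested.

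**Figure D3:**
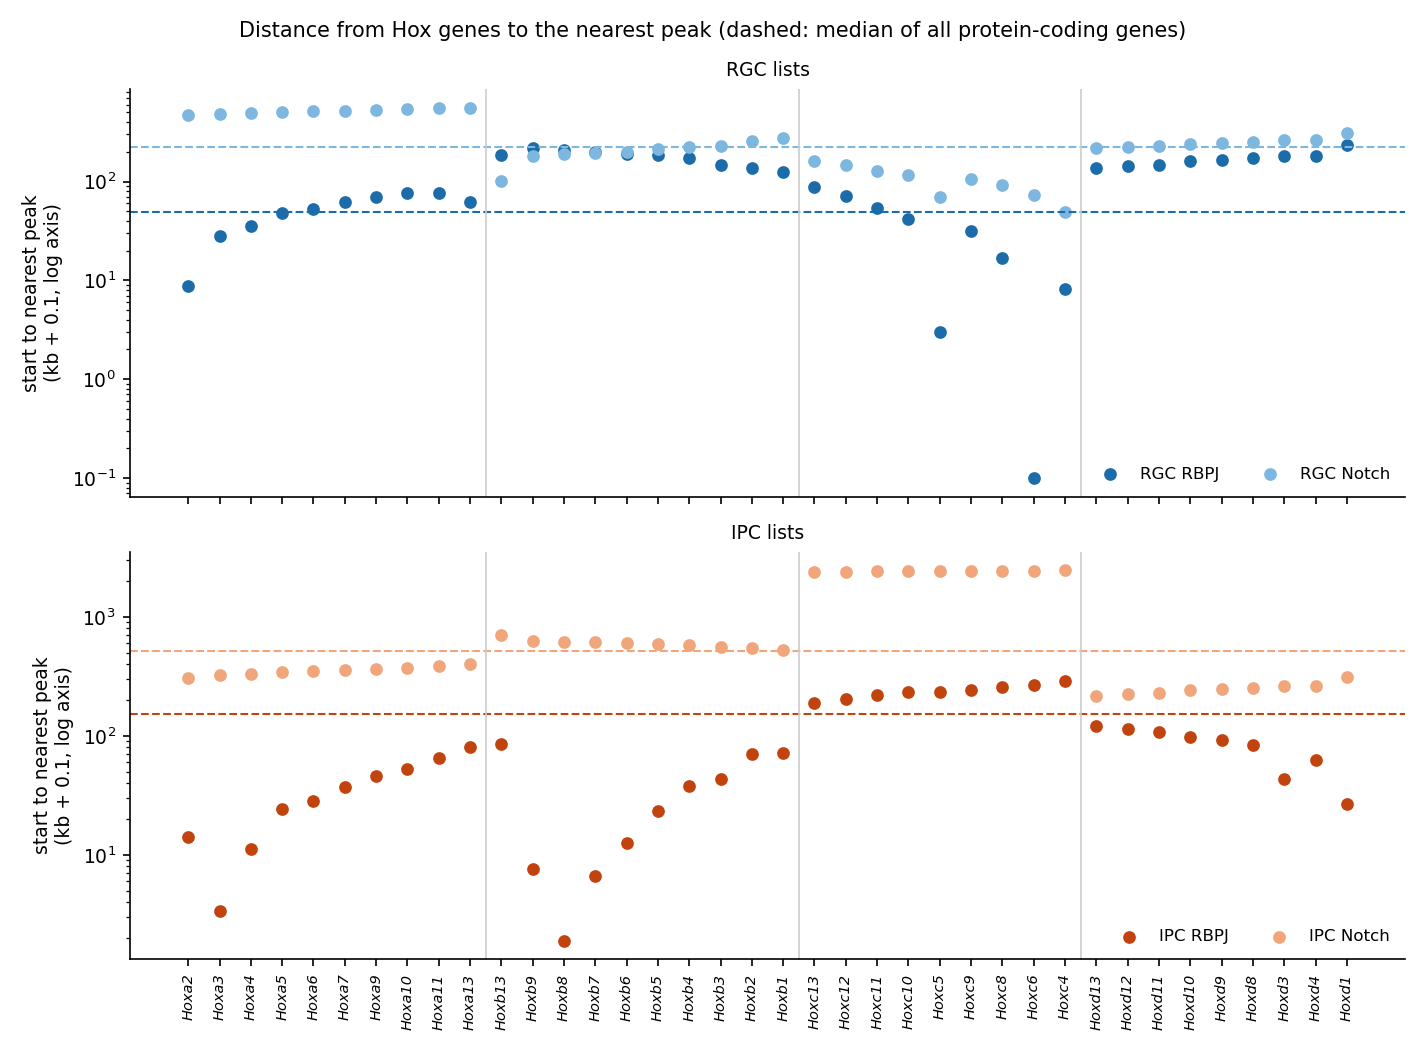
Distance from the nearest start site of 38 Hox genes to the nearest peak of each list. The vertical axis is in kb with 0.1 kb added, on a log axis, genes are ordered by position within each complex, and dashed lines are the medians of all protein-coding genes. Hoxc6 sits at 0 kb for RGC RBPJ, and Hoxc stands far from any IPC Notch peak.

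The complexes were compared with the genome in their content of these words. TTCCCA occurred 1.06 times per kb in Hoxa, 1.10 in Hoxb, 1.08 in Hoxc and 0.878 in Hoxd, and 0.934 times per kb in the genome. The complexes contained 514 such words in all, of which 8 (1.56%) lay under a consensus peak, against 2.19% of words in the genome. Of the longer word TTCCCAC, searched on both strands, 1 of 112 in the complexes lay under a peak, the one in the first Hoxb8 line. Genome-wide, 2.56% of TTCCCAC words lay under a peak. GATC sites occurred 2.29 times per kb in the complexes, from 2.06 in Hoxd to 2.45 in Hoxb, and 2.52 times per kb in the genome. The part of site content in the number of Hox peaks was not tested. Of the 1126 sites, 17 (1.51%) lay under a peak, against 2.03% in the genome. TAATTA, a core sequence of many homeodomain proteins, was less frequent in the complexes, at 0.165 to 0.311 per kb against 0.409. Of its 116 occurrences there, 0 lay under a peak, against 1.54% in the genome. The complexes held only 4 consensus peaks, so this 0 does not measure a lack. The complexes were also richer in GC, at 48.9 to 50.03% against 41.7%, and in CpG, at 20.9 to 29.9 per kb against 8.26.

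Beside all consensus peaks, the 6 Hox peaks were of similar width and GC content and had higher medians of CpG and GATC density over their whole length. Their median width was 1763 bp, and that of all consensus peaks 1890 bp. Their GC content ranged from 42.4 to 51.9% with a median of 47.6%, and the median of all consensus peaks was 45.3%. Their median CpG density was 19.2 per kb, against 11.9 for all consensus peaks, of which the upper quartile was 18.2. This difference was not kept in the central 500 bp, where the CpG median of the Hox peaks was close to that of all. The 19.2 per kb was also below the CpG density of each complex, 20.9 to 29.9 per kb, so higher CpG density is not shown to be particular to the peaks. Their median GATC density was 3.92 per kb, against 2.95 for all, of which the upper quartile was 3.88. TTCCCA was found in 4 of 6 Hox peaks and in 82.9% of all consensus peaks. TTCCCAC was found in 2 of 6, those at Hoxb8 and Hoxc4, and in 41.2% of all. GATC was found in 5 of 6 and in 90.2% of all. The density of GATC ranged from 0 to 5.05 per kb among the Hox peaks. The 3 RGC RBPJ peaks had 4.35 to 5.05 sites per kb and the RGC Notch peak had 3.49. The IPC RBPJ peaks at Hoxd1 and Hoxb8 had 0.869 and 0 per kb, below the lower quartile of all consensus peaks, 2.03 per kb.

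**Figure D4:**
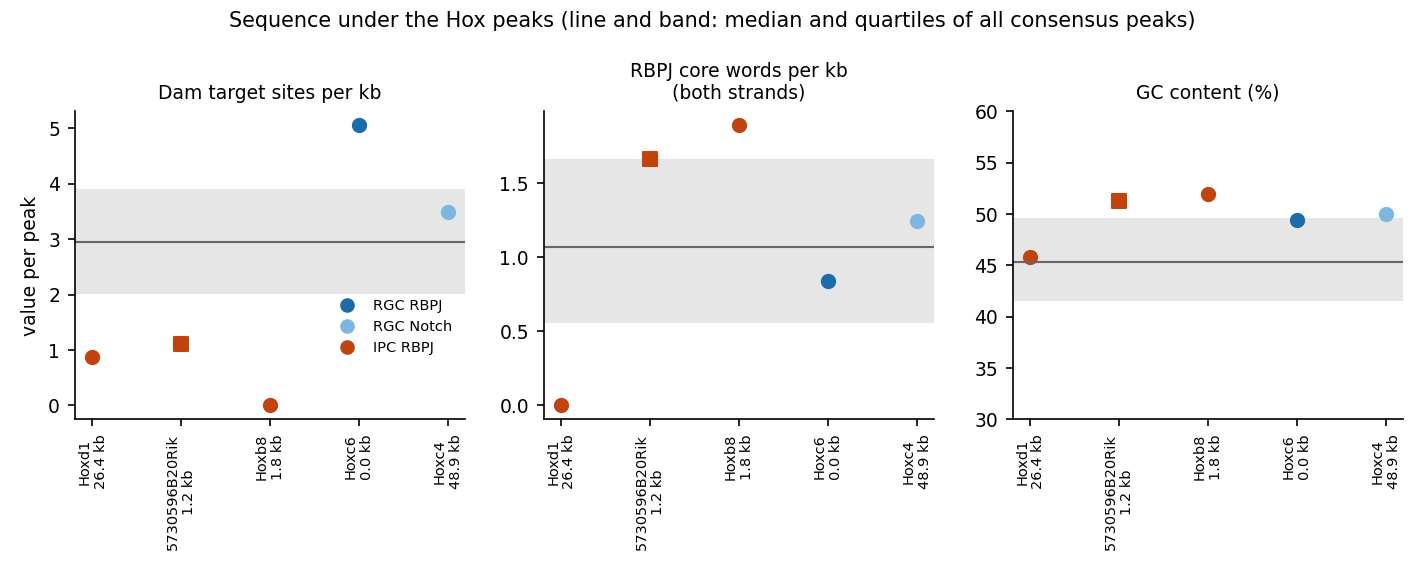
Sequence content of the peaks at Hoxd1, Hoxb8, Hoxc6 and Hoxc4 (circles) and of the peak nearest 5730596B20Rik (square), by gene and distance to its start. Panels give GATC sites per kb, TTCCCA words per kb on both strands and GC content in percent, colored by list. The line and band are the median and quartiles of all consensus peaks, and the IPC RBPJ peaks lie below the band for GATC sites.

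The 6 peaks fell into 4 of the 8 k-means clusters of the deposited file, in which peaks had been grouped by the pattern of binding intensity over lists. Clusters 3 and 5 had 2 Hox peaks each, and clusters 1 and 8 had 1 each. These clusters held 16.3, 22.5, 10.5 and 14.4% of all consensus peaks. No Hox peak fell into cluster 6, which held 10.8% of all peaks. Of peaks called only for RBPJ in IPCs, 83.3% belonged to cluster 3, and of those called only for Notch in RGCs, 68.2% belonged to cluster 1. Peaks called only for RBPJ in RGCs were spread over more clusters, with 38.2% in cluster 5, 27.4% in cluster 8 and 10.3% in cluster 4.

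The genes next to the complexes had peaks of their own in some cases. Over all protein-coding genes, 38.7% had a consensus peak, and 73.3% of those with a territory from 110 kb up. The 100 kb on each side of the complexes held 7.50 peaks per Mb, against 7.63 in the genome. Evx1, an even-skipped homeobox gene beside Hoxa13, was nearest to 4 consensus peaks, comprising 2 RGC RBPJ peaks and 2 IPC RBPJ peaks. Its relative Evx2, 8.75 kb from the Hoxd complex, had 0. The territory of Evx1 was 147.8 kb and that of Evx2 44.5 kb. Skap2 beside the Hoxa complex had 5 peaks and Skap1 beside Hoxb1 had 6, and the latter comprised 3 RGC RBPJ and 3 IPC RBPJ peaks. Mtx2 beside Hoxd1 had 5, Calcoco1 and Smug1 at the ends of Hoxc had 1 each, and Ttll6 beside Hoxb13 had 0.

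Regulators and partners of Hox proteins had more peaks per length of territory than the Hox genes. The 9 TALE homeobox genes encode proteins that bind DNA together with Hox proteins. Of these genes, 7 (77.8%) had a consensus peak, against 38.7% of all protein-coding genes. Their median territory was 248.9 kb. Among all protein-coding genes with a territory from 110 kb up, 73.3% had a peak. The TALE genes had 77 peaks in all, or 22.0 per Mb of territory. Meis2 had 23 peaks and Meis1 had 19, and each had a start under a peak. Of the Meis2 peaks in the single lists, 18 were called for RBPJ in RGCs, 6 for Notch in RGCs, 4 for RBPJ in IPCs and 9 for Notch in IPCs. Pbx2 and Meis3 had 0. The number of TALE peaks in proportion to territory was 26.7, so these genes were above both the genome and the Hox loci, which had 7.11 peaks per Mb.

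Genes upstream of Hox transcription were closer to the genome level. Of 9 genes, 5 (55.6%) had a consensus peak, against 38.7% of all protein-coding genes. The 9 genes had 13 peaks beside 10.04 in proportion to territory, and their median territory was 84.9 kb. Rara, which encodes a retinoic acid receptor, had 6 peaks, and Rarb, which encodes another, had 1. Egr2, which patterns the hindbrain, had 1. Cdx1, Cdx2 and Cdx4, the caudal genes that activate Hox genes in the posterior embryo, had 0, as did Rarg.

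The remaining homeobox genes were described in 2 lists. Of 9 other homeobox genes, 4 (44.4%) had a peak, against 38.7% of all protein-coding genes, with 13 peaks beside 8.29 in proportion to territory. They were Evx1 and Gbx2 with 4 each, Gsx2 with 3 and Meox1 with 2. Evx2, Gsx1, Pdx1, Mnx1 and Meox2 had 0. Of 12 homeobox genes known for roles in the forebrain, 11 had a peak, with 41 peaks or 21.5 per Mb, beside 14.6 in proportion to territory. Pax6 had 8 peaks, and Lhx2, Emx2 and Otx1 had 6 each. Dlx5 was the one with 0. In each of the 4 single lists the share of forebrain homeobox genes with a peak was above that of Hox genes. For RBPJ in RGCs it was 83.3% against 5.13%, beside 30.9% of all protein-coding genes. For Notch in IPCs it was 33.3% against 0%, beside 6.92% of all protein-coding genes. The TALE genes were also above the Hox genes, at 77.8% and 55.6% in the same lists. No test was run on these counts, and the lists differ in territory, with a median of 143.3 kb for the forebrain genes and 10.1 kb for Hox genes.

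**Figure D5:**
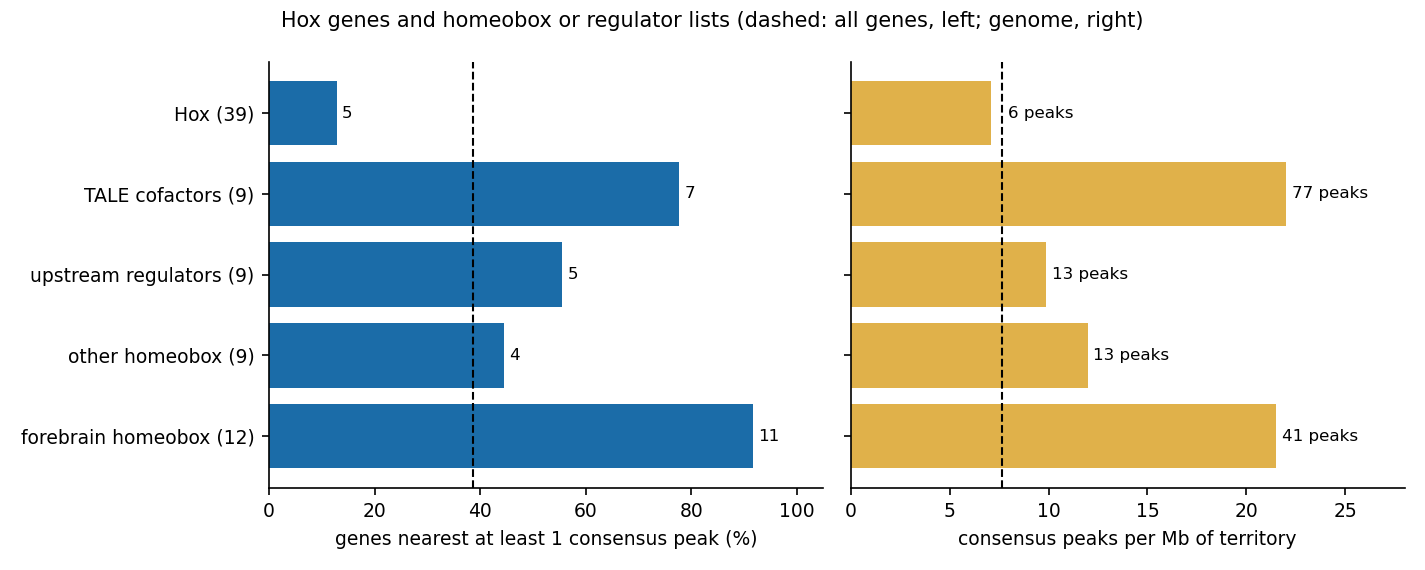
Hox genes and 4 lists of related genes, with the number of genes in parentheses. The left panel gives the percentage of genes nearest at least 1 consensus peak with the number of genes beside each bar, and the right panel gives consensus peaks per Mb of territory with the number of peaks. Dashed lines are all protein-coding genes (38.7%) and the genome (7.63 per Mb), and the Hox bar is below the line by far on the left and by little on the right.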

How the data were processed

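The authors aligned the reads to mm10 and used MACS2 to call broad peaks in each Dam-fusion sample against each Dam-only sample. They retained peaks found in every such comparison of a condition and deposited 4 pooled peak lists and 1 file of consensus peaks with a k-means cluster. The deposited values are start and end positions in bp. They hold no height, fold or value per sample, and 0 columns of single samples. The other 16 samples of the series were not analysed here.

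Peaks on the 21 nuclear chromosomes were assigned to protein-coding genes by the closest transcript start (GENCODE vM21), measured from the peak edge. Territories, coverage and words were computed on GRCm38.p6 with Python 3.11.15, numpy 2.4.6, pandas 2.3.3 and scipy 1.17.1. Positions are counted from 1. Where a share was 0, the limit is 3 counts of the total. On simulated peaks, the assignments were the same as those of an exhaustive search in 500 of 500 cases. No statistical test was run. Depth per sample is not given by these files.

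The genes named were those set by rule, Hox genes with a consensus peak, the genes flanking the complexes and the lists of TALE, upstream, other homeobox and forebrain homeobox genes. RNA genes were named after their values were seen. Some genes of these lists, with their peaks, are counted in the totals and are not reported here one by one. The members and lists were chosen with earlier results of these data known.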

Additional observations from a re-analysis of the deposited data

How the results depend on the processing

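Counts were called moved beyond 1.5 times the reported count, the covered share outside its binomial interval over bases, and the medians of sequence measures beyond 1 SD over the 6 peaks. By these rules 11 of 43 alternative values moved and 32 did not. With all annotated genes competing, 3 consensus peaks were nearest a Hox gene in place of 6, 3 Hox genes had a peak in place of 5, and the single lists gave 1 for RGC RBPJ and 0 for RGC Notch. Within 10 kb of a start, 3 consensus peaks remained Hox peaks, with 1 for IPC RBPJ and 0 for RGC Notch. Counting peaks that overlap a complex gave 0 for RGC Notch, since its peak lies outside. The covered share of the complexes was 1.04% with 10 kb added on each side and 1.07% with peaks of at least 1000 bp, in place of 1.18%. Only 4 peaks cover the complexes, and the interval over bases treats neighboring bases as independent. It is therefore too narrow, and small changes of the covered share were called moved. In the central 500 bp of the Hox peaks the median density of TTCCCA was 0 per kb in place of 1.04. The median over the centers of all consensus peaks was also 0 per kb. TTCCCA was found in 2 of 6 Hox centers and in 44.5% of all. The median density of GATC in the Hox centers was 6.0 per kb in place of 3.92, within 1 SD but over 1.5 times higher. Over the centers of all consensus peaks it was 2.0 per kb. The median density of CpG in the Hox centers was close to that in all centers, unlike over whole peaks.

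Leaving out a replicate was not run because the files hold no value per sample. No paired analysis was possible because the lists are pooled and the result comes from no test. Depth and peak strength are not given by the files, so weak binding at Hox genes below the calling threshold cannot be told apart from its absence.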
